A study of Mustela putorius furo and Mus musculus with 4 samples.

Results

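The IL-6 family, gp130 and STAT3 genes examined here are 10 genes of one signalling route, chosen by name: the cytokines *Il6*, *Lif* and *Clcf1*, the receptor subunits *Il6st* (gp130), *Osmr* and *Il11ra1*, the kinases *Jak1* and *Jak2*, the transcription factor *Stat3* and the inhibitor *Socs3*. Symbols were matched without regard to case, and the 2 species shared 13373 symbols in all. The mouse libraries held values for all 10 genes and the ferret libraries for 9, since *Il11ra1* had no ferret value in the files used here. Of these 9, *Il6* was below the minimum level for testing in both species, and 8 genes were compared. Primary astrocytes came from the cerebral cortices of ferrets (*Mustela putorius furo*) at postnatal day 1 (2 libraries) and of wild-type ICR mice at postnatal day 1 to 3 (2 libraries). Cells of both species were grown with fetal bovine serum as mixed glia for 14 days, shaken, replated and moved to a serum-free medium with heparin-binding EGF-like growth factor before RNA was taken. A ferret pup supplied several flasks, whereas several mouse pups were pooled in a flask, and nothing states whether the duplicate libraries came from separate cultures. The p-values therefore measure the spread between these libraries, which may be technical, and species, genome annotation and culture cannot be told apart.

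Cytokines of the IL-6 family signal through gp130, which pairs with a cytokine-specific subunit such as the LIF, oncostatin M or IL-6 receptor. The paired receptors activate Janus kinases, which phosphorylate STAT3, and STAT3 induces its own feedback inhibitor, SOCS3. In the brain, this route drives the differentiation of precursors into astrocytes and the induction of GFAP, and it is active in reactive astrocytes after injury.

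Expression was given as FPKM, the fragments counted for a gene divided by its exon length and by the mapped fragments of the library, which allows levels of different genes to be set side by side within a library. The files analysed here hold FPKM alone, and read counts, which the study lists in a supplement, were not used here. The steps between the lowest values give a depth of ferret library 1 over library 2 of 1.17 and of mouse library 1 over library 2 of 0.834, and absolute depth was not derived here. FPKM over the shared symbols added up to 227391 and 236543 in ferret and to 300465 and 308121 in mouse libraries. Differences were taken on the log2(FPKM + 1) scale, ferret minus mouse, which understates the change of low genes, and a gene was called higher or lower at an adjusted p under 0.05 by limma and an absolute log2 difference above 1. Over the 10204 genes tested, the median log2 difference was -0.35 with FPKM as deposited, -0.01 after all libraries were scaled to the mean of their totals (common-total scaling) and 0.05 after quantile normalization. All 13 astrocyte markers examined were detected in all 4 libraries, with *Gfap* at 1481 and 1522 FPKM in ferret and 1429 and 1546 FPKM in mouse astrocytes. Of the 13, 8 were called lower and 1 higher in ferret astrocytes, and the glutamate transporter *Slc1a2* was nearly absent there, at 0.133 and 0.178 FPKM against 47.1 and 51.8 FPKM. Of 17 microglial markers shared by the species, all 17 were called lower in ferret astrocytes, with a summed level of 13.1 and 11.7 FPKM in ferret and 958 and 936 FPKM in mouse libraries, and *Cx3cr1* was listed at 0 in both ferret libraries. All 8 fibroblast markers were called lower as well, with sums of 127 and 112 FPKM against 1576 and 1550 FPKM. The 9 oligodendrocyte lineage markers shared by the species summed to 169 and 188 FPKM in ferret and to 69.0 FPKM in both mouse libraries. Of the 8 tested, 3 were called higher, while *Olig2* and *Cspg4* had negative log2 differences (-0.82 and -0.47). *Olig1*, at 107 and 117 FPKM in mouse libraries, had no ferret value here and is outside the sums. The 5 neuronal markers shared by the species summed to 34.5 and 34.4 FPKM in ferret and 21.5 and 23.4 FPKM in mouse libraries. Of the 3 tested, 2 were called higher. *Gap43*, not called, made up most of the sums (24.1 and 23.1 FPKM in ferret, 19.8 and 21.5 FPKM in mouse libraries). *Stmn2*, at 124 and 127 FPKM in mouse libraries, had no ferret value here and is outside the sums. In such whole-culture RNA, fewer cells of a type and less RNA per cell cannot be told apart. The study counted cells by immunostaining, in cultures kept with serum rather than in the serum-free medium. Most cells were astrocytes in both species, with a larger share of microglia in mouse cultures and neurons reported in ferret cultures alone. Fibroblasts were not among the cell types stained.

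The family did not differ in one direction. Transcripts of the cytokine LIF were more abundant in ferret astrocytes, those of the cytokine CLCF1, of gp130, of the oncostatin M receptor and of JAK2 were more abundant in mouse astrocytes, and *Jak1*, *Stat3* and *Socs3* differed by less than a log2 value of 1. Of the 8 genes tested, 1 was called higher and 4 were called lower in ferret astrocytes, against 13.1% called higher and 30.1% called lower among all genes tested. At an adjusted p under 0.05 alone, 7 of the 8 differed, against 88.6% of all genes. The ferret and mouse libraries did not overlap for any of the 8, and neither did those of 94.1% of all genes. The ferret libraries lay above for 3 of the 8 (35.1% of all genes) and below for 5 (59.0%). The median log2 difference of the 8 was -0.77, beside -0.35 over all genes. Like the 4 members called lower, the microglial and fibroblast markers summed above were lower in ferret astrocytes. The part of cell make-up in these calls was not tested.

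**Figure D1:**
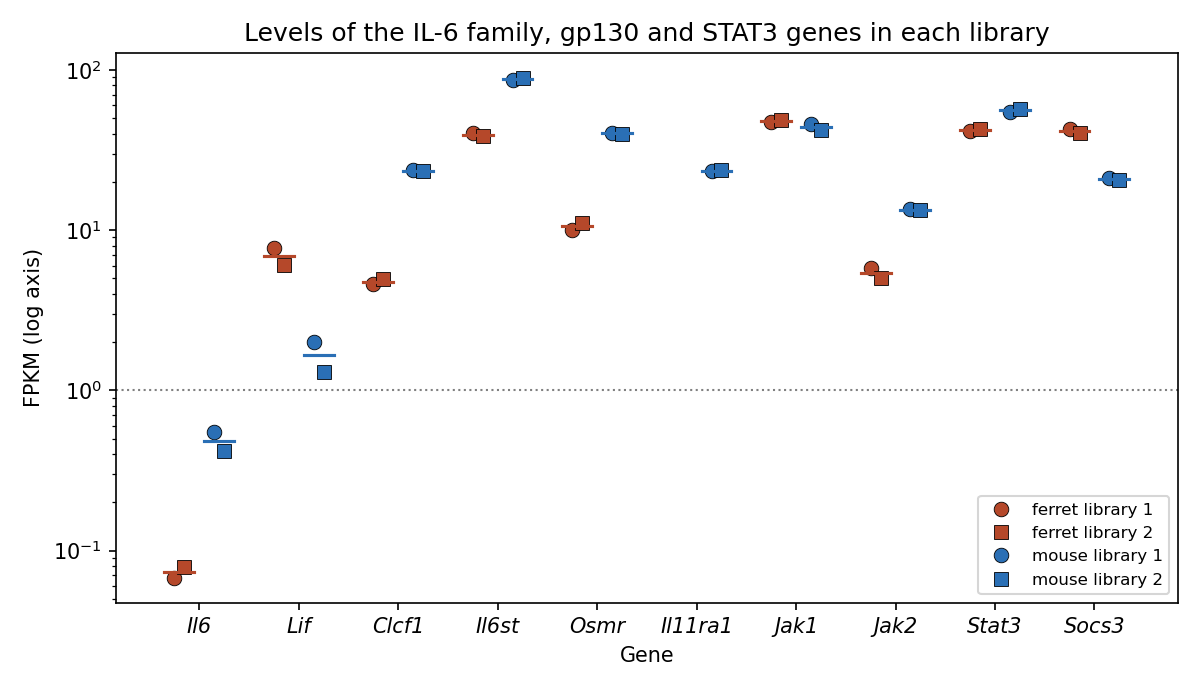
FPKM (log axis) of the 10 genes in the 2 ferret (red) and 2 mouse (blue) libraries, with circles for library 1, squares for library 2, bars for the means and a dotted line at 1 FPKM. *Lif* and *Socs3* sit higher in the ferret libraries, *Clcf1*, *Il6st*, *Osmr* and *Jak2* lower, *Il6* is below 1 FPKM in all 4 libraries, and *Il11ra1* has mouse values only.

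Among the cytokines, *Lif*, which encodes leukemia inhibitory factor, stood at 7.76 and 6.09 FPKM in ferret and at 2.00 and 1.31 FPKM in mouse astrocytes. Both ferret libraries lay above both mouse libraries, and the duplicates of this gene were the farthest apart on the log2 scale among the members tested in mouse astrocytes. The means were 6.93 ± 1.18 FPKM (SD, n = 2) and 1.66 ± 0.490 FPKM (SD, n = 2), 4.18-fold higher in ferret astrocytes, and the log2 difference was 1.58 (standard error, SE, 0.135, adjusted p = 1.78e-06). Ranked among the shared symbols of each library, *Lif* stood at percentiles 61.0 and 55.0 in ferret and 33.1 and 29.9 in mouse astrocytes. In the mouse genome (GRCm38) it spans positions 4257557 to 4272514 of chromosome 11, plus strand.

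*Clcf1*, which encodes cardiotrophin-like cytokine factor 1, a ligand of the CNTF receptor complex, went the other way. Its level was 4.58 and 4.96 FPKM in ferret against 23.6 and 23.3 FPKM in mouse astrocytes, so that mouse astrocytes had 4.91 times the ferret mean. The log2 difference of -2.08 (SE 0.069, adjusted p = 1.75e-09) was the largest in absolute size among the members tested. Its percentile was 49.3 and 50.4 in ferret and 79.1 and 78.4 in mouse astrocytes. The mouse locus spans positions 4214238 to 4223490 of chromosome 19, plus strand, and 8.17% of its exonic bases are shared with another annotated protein-coding gene of the same strand, which could affect how fragments were assigned.

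*Il6* itself was close to absent from these values. It had 0.068 and 0.080 FPKM in ferret and 0.548 and 0.416 FPKM in mouse astrocytes. All 4 values were below 1 FPKM, and the gene was outside the main comparison. In the fit without a minimum level the log2 difference was -0.46 (adjusted p = 0.0045), on a scale where such low values weigh little. The microglial and fibroblast markers, summed above, differed in the same direction as *Il6*, and their part in it was not tested.

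The receptor subunits *Il6st* and *Osmr* were both lower in ferret astrocytes. *Il6st*, which encodes gp130, the subunit that all these receptors share, reached 40.4 and 38.4 FPKM in ferret and 86.5 and 88.9 FPKM in mouse astrocytes. The mouse mean of 87.7 ± 1.64 FPKM (SD, n = 2) was 2.23 times the ferret mean of 39.4 ± 1.43 FPKM (SD, n = 2), and the log2 difference was -1.14 (SE 0.059, adjusted p = 3.83e-08). In mouse astrocytes gp130 was the most abundant transcript of the 10, and even in ferret astrocytes it stood at percentiles 91.4 and 90.5. Under common-total scaling, the log2 difference was -0.75 (adjusted p = 1.12e-05), no longer above 1 in absolute size. The mouse locus spans positions 112464070 to 112510086 of chromosome 13, plus strand.

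*Osmr*, which encodes the partner of gp130 in the oncostatin M receptor, had 10.06 and 11.03 FPKM in ferret and 40.5 and 39.8 FPKM in mouse astrocytes. The mouse libraries lay far above the ferret libraries, with a mean 3.81 times as high and a difference of -1.83 on the log2 scale (SE 0.066, adjusted p = 3.13e-09). The gap of *Osmr* was wider than that of gp130 within the same libraries. The log2 ratio of *Osmr* to *Il6st* was -2.01 and -1.80 in ferret and -1.10 and -1.16 in mouse libraries. Such a ratio does not depend on a factor that scales a whole library, though quantile normalization can change it. It also depends on the gene models of each species. With 2 libraries against 2, an exact permutation test (two-sided) cannot go below p = 0.333, which this ratio reached. The mouse locus spans positions 6813577 to 6874969 of chromosome 15, minus strand.

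*Il11ra1*, which encodes the alpha subunit of the IL-11 receptor, stood at 23.2 and 23.7 FPKM in mouse astrocytes and was not compared. Mouse *Il11ra2*, a near-identical copy between which reads can be split, had 3 rows, the highest at 5.99 and 6.07 FPKM.

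The Janus kinases differed from each other. *Jak1*, the kinase on which gp130 signalling mainly depends, had 47.2 and 48.4 FPKM in ferret and 45.6 and 42.2 FPKM in mouse astrocytes. It was the most abundant member in ferret astrocytes, and the log2 difference of 0.12 (95% interval -0.02 to 0.26, adjusted p = 0.0899) did not pass the threshold with FPKM as deposited. Under common-total scaling the same gene had a log2 difference of 0.51 (adjusted p = 1.45e-04) and after quantile normalization 0.48.

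*Jak2* stood at 5.82 and 5.02 FPKM in ferret and at 13.5 and 13.3 FPKM in mouse astrocytes. The mouse mean was 2.48 times the ferret mean, and the log2 difference was -1.17 (SE 0.079, adjusted p = 3.01e-07). Under common-total scaling it was -0.82. The log2 ratio of *Jak2* to *Jak1* was -3.02 and -3.27 in ferret and -1.76 and -1.66 in mouse libraries. *Jak2* thus stood at 0.113 of *Jak1* in ferret and at 0.306 of *Jak1* in mouse astrocytes (exact permutation p = 0.333, two-sided, the smallest possible). Mouse *Jak1* spans positions 101152367 to 101265282 of chromosome 4, minus strand, and *Jak2* spans 29251828 to 29313080 of chromosome 19, plus strand.

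*Stat3*, the transcription factor of the route, had 41.2 and 42.4 FPKM in ferret and 54.8 and 57.0 FPKM in mouse astrocytes. The ferret libraries lay below the mouse libraries, with a difference of -0.41 on the log2 scale (SE 0.058, adjusted p = 8.10e-05), which is -0.06 relative to the median of all genes tested. Its percentile was nearly the same in the 4 libraries, at 91.6 and 91.4 in ferret and 91.8 and 91.9 in mouse astrocytes. Under common-total scaling the log2 difference was -0.03 (adjusted p = 0.549) and after quantile normalization -0.05 (adjusted p = 0.257), so whether *Stat3* differed depended on the scaling. Mouse *Stat3* spans positions 100885098 to 100939540 of chromosome 11, minus strand, and 72 of its exonic bases overlap *Stat5a* on the other strand.

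*Socs3*, which STAT3 induces and which blocks the receptor at gp130, had 42.5 and 40.4 FPKM in ferret and 21.2 and 20.5 FPKM in mouse astrocytes. The ferret libraries lay above the mouse libraries, with a mean 1.99-fold higher. The log2 difference was 0.96 (SE 0.061, adjusted p = 1.82e-07) with FPKM as deposited, just under the size required for a call, and 1.34 (adjusted p = 1.20e-06) under common-total scaling. Its percentile was 91.8 and 91.0 in ferret and 77.0 and 75.9 in mouse astrocytes.

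*Socs3* was also set against *Stat3*, its inducer, within each library. The log2 ratio of *Socs3* to *Stat3* was 0.04 and -0.07 in ferret and -1.37 and -1.48 in mouse libraries. By FPKM the transcripts were therefore about equally abundant in ferret astrocytes (ratio 0.992), while *Socs3* stood at 0.372 of *Stat3* in mouse astrocytes. The difference of 1.41 between species on the log2 scale far exceeded the SDs of 0.080 and 0.076 between duplicates (exact permutation p = 0.333, two-sided, the smallest possible). These SDs do not cover differences between the gene models of the species, on which the ratio depends. Mouse *Socs3* spans positions 117966079 to 117970047 of chromosome 11, minus strand.

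**Figure D2:**
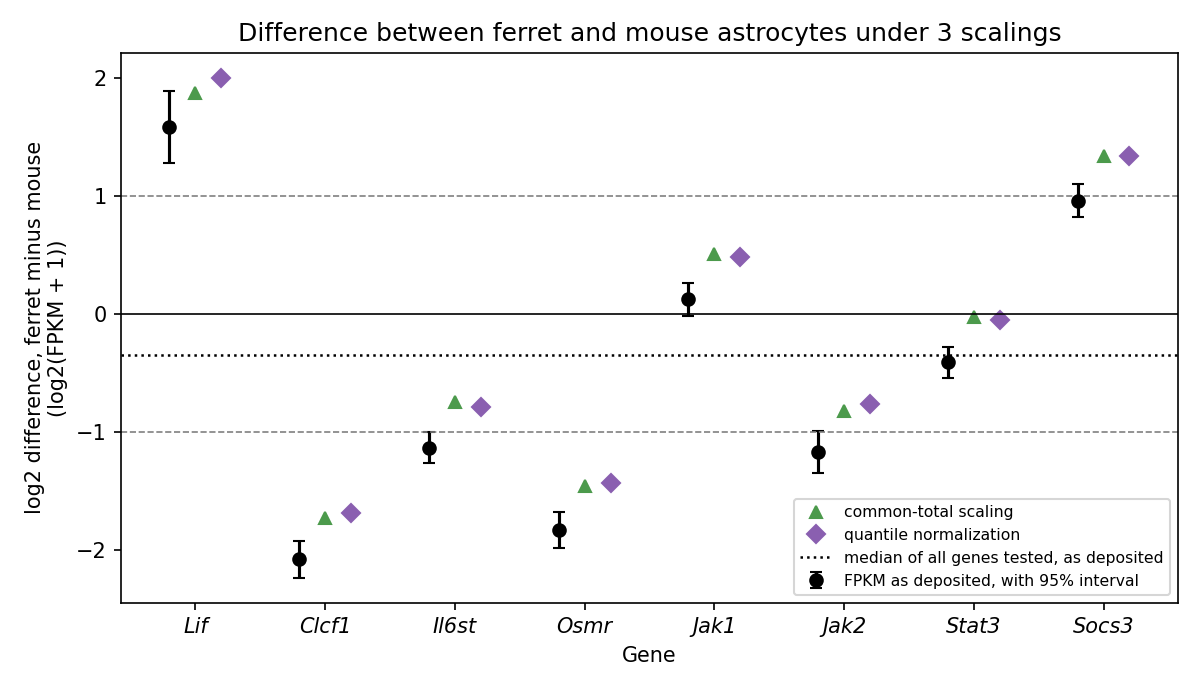
Log2 difference (ferret minus mouse, log2(FPKM + 1) scale) of the 8 genes tested, with FPKM as deposited (black, 95% interval), under common-total scaling (green) and after quantile normalization (purple). Dashed lines mark an absolute log2 difference of 1, and the dotted line the median of all genes as deposited (-0.35). *Lif*, *Clcf1* and *Osmr* stay beyond the dashed lines under each scaling, *Il6st* and *Jak2* move inside them, and *Socs3* moves outside.

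The order of the levels also differed between the species. In ferret astrocytes it ran from *Jak1* (47.8 FPKM) through *Stat3* (41.8 FPKM), *Socs3* (41.5 FPKM), *Il6st* (39.4 FPKM), *Osmr* (10.5 FPKM), *Lif* (6.93 FPKM), *Jak2* (5.42 FPKM) and *Clcf1* (4.77 FPKM) to *Il6* (0.074 FPKM). The libraries of *Stat3* and *Socs3* overlapped, and those of *Socs3* and *Il6st* were separated by less than the SD of either gene. In mouse astrocytes the order was *Il6st* (87.7 FPKM), *Stat3* (55.9 FPKM), *Jak1* (43.9 FPKM), *Osmr* (40.1 FPKM), *Il11ra1* (23.5 FPKM), *Clcf1* (23.4 FPKM), *Socs3* (20.8 FPKM), *Jak2* (13.4 FPKM), *Lif* (1.66 FPKM) and *Il6* (0.482 FPKM). Only *Il11ra1* and *Clcf1* overlapped among neighbours there. The genes whose levels over the 4 libraries were nearest to *Lif*, by Euclidean distance in log2(FPKM + 1), were *Znrf3* (0.309) and *Tedc1* (0.326). Those nearest to *Clcf1* were *Tmem161a* (0.101), *Eef1akmt1* (0.112) and *Tjap1* (0.117).

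A list of 52 other genes of the pathway gave the surroundings of the 10. Of these, 42 were tested, and 8 were called higher and 10 lower in ferret astrocytes. The median of their log2 differences was -0.18. One of the 8, the AP-1 gene *Junb*, was listed at 0 in both mouse libraries and at 18.2 and 19.2 FPKM in ferret astrocytes, so no fold is given for it. Without it, 7 of 41 were called higher. These shares stand beside 13.1% and 30.1% for all genes tested.

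The other cytokines were led by *Cntf*, ciliary neurotrophic factor, an astrocyte product. It had 62.6 and 64.5 FPKM in ferret and 69.3 and 70.5 FPKM in mouse astrocytes, with a difference of -0.13 on the log2 scale (adjusted p = 0.0455) that turned to 0.25 under common-total scaling. *Ebi3*, a subunit of IL-27, had 0.143 and 0 FPKM in ferret and 1.91 and 1.62 FPKM in mouse astrocytes (log2 difference -1.37). *Il11*, at 1.26 and 0.621 FPKM in ferret and 0.286 and 0.396 FPKM in mouse astrocytes, and *Il27*, at most 0.067 FPKM in any library, were below the minimum for testing. *Osm*, which encodes oncostatin M, the ligand of OSMR made largely by myeloid cells, was listed at 0 in both ferret libraries and at 0.375 and 0.423 FPKM in mouse astrocytes. The microglial and fibroblast markers moved with *Osm* and *Ebi3*, and their part was not tested. *Ebi3* reached the minimum level for testing in mouse astrocytes alone. *Ctf1* stood at 5.43 and 5.66 FPKM in mouse astrocytes and *Il31* was listed at 0 there, both without a ferret value here.

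The other receptor genes of the list were divided in direction. *Lifr*, the receptor subunit for LIF, had 9.94 and 9.26 FPKM in ferret and 3.30 and 3.77 FPKM in mouse astrocytes, 2.71-fold higher in the ferret (log2 difference 1.23, standard error 0.082, adjusted p = 2.61e-07). *Lif* and *Lifr* were therefore both called higher in ferret astrocytes, while gp130 was lower. The log2 ratio of *Lifr* to *Il6st* was -2.02 and -2.05 in ferret and -4.71 and -4.56 in mouse libraries, which is 0.244 *Lifr* per *Il6st* in ferret and 0.040 in mouse astrocytes (exact permutation p = 0.333, two-sided, the smallest possible). *Il27ra*, which pairs with gp130 for IL-27, had 7.49 and 7.75 FPKM in ferret and 0.729 and 0.451 FPKM in mouse astrocytes (log2 difference 2.44). *Cntfr*, the binding subunit for CNTF and CLCF1, was lower, at 1.31 and 1.39 FPKM against 5.94 and 6.05 FPKM (log2 difference -1.58). *Il31ra* was at most 0.059 FPKM in any library. *Il6ra*, the IL-6 receptor, stood at 3.58 and 4.01 FPKM in mouse astrocytes and had no ferret value here.

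The make-up of the receptor pool was described from the summed FPKM of *Osmr*, *Lifr*, *Cntfr* and *Il27ra*, a set put together after their values were seen and given without a test. The share of *Osmr* was 34.9% and 37.5% in ferret and 80.2% and 79.5% in mouse libraries. *Lifr* made up 34.5% and 31.4% in ferret and 6.54% and 7.53% in mouse libraries. *Il27ra* made up 26.0% and 26.3% in ferret and 1.44% and 0.900% in mouse libraries. The sum of these 4 genes was thus mostly *Osmr* in mouse astrocytes and spread over *Osmr*, *Lifr* and *Il27ra* in ferret astrocytes. *Il11ra1* (23.2 and 23.7 FPKM in mouse libraries), *Il11ra2* and *Il6ra* had no ferret value here and are outside the sum. The shares are therefore not those of all receptor subunits.

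**Figure D3:**
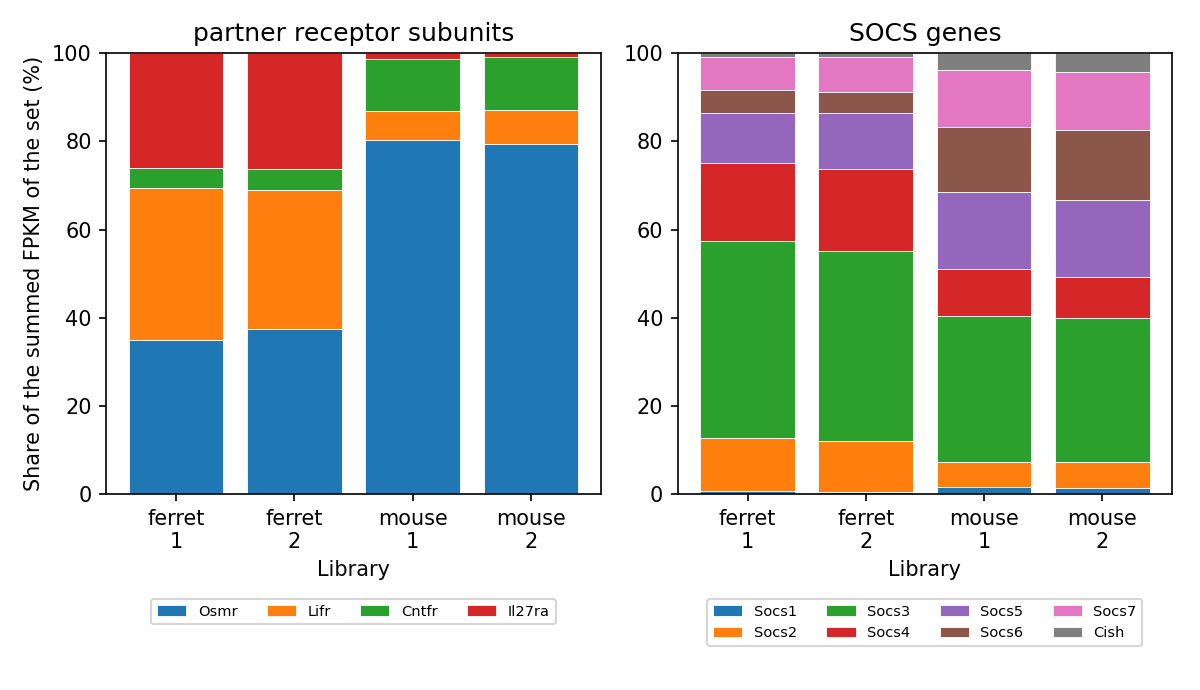
Share (%) of each gene in the summed FPKM of 4 partner receptor subunits with values in both species (left) and of SOCS genes (right) in each of the 4 libraries. *Il11ra1*, *Il11ra2* and *Il6ra*, without a ferret value here, are not in the receptor bar. *Osmr* fills 79.5% or more of the receptor bar in the mouse libraries and 37.5% or less in the ferret libraries, and *Socs3* is the largest part of the SOCS bar in all 4 libraries.

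Among the other kinases, phosphatases and inhibitors, 14 of 15 were tested, 2 were called higher and 2 lower in ferret astrocytes, beside 13.1% and 30.1% of all genes tested. The higher genes were both of the SOCS family. *Socs2*, a growth hormone feedback inhibitor, had 11.4 and 10.8 FPKM in ferret and 3.73 and 3.74 FPKM in mouse astrocytes (log2 difference 1.35), and *Socs4* had 16.9 and 17.3 FPKM against 6.87 and 5.90 FPKM (log2 difference 1.29). *Socs6* and *Cish* had lower values in ferret astrocytes, with log2 differences of -0.93 and -0.96, under the size required for a call. With a pseudocount of 0.1 these were -1.06 and -1.51. Of the summed FPKM of 8 SOCS genes, *Socs3* held 44.6% and 43.1% in ferret and 33.0% and 32.5% in mouse libraries. The genes called lower were both phosphatases. *Ptpn6* (SHP-1), best known from blood cells, had 0.088 and 0.091 FPKM in ferret and 8.31 and 7.81 FPKM in mouse astrocytes (log2 difference -3.06). The microglial and fibroblast markers differed in the same direction, and their part was not tested. *Ptpn2*, which dephosphorylates JAK1 and STAT3, had 5.54 and 5.19 FPKM against 16.6 and 16.9 FPKM (log2 difference -1.48). *Ptpn11* (SHP-2), which binds gp130, had 32.8 and 33.0 FPKM against 51.4 and 53.8 FPKM (log2 difference -0.66), and the third gp130-associated kinase, *Tyk2*, had 8.31 and 8.62 FPKM against 5.87 and 5.63 FPKM (log2 difference 0.49).

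Of the 6 other STAT genes, 1 was called higher and 1 lower, beside 13.1% and 30.1% of all genes tested. *Stat4* had 1.48 and 1.16 FPKM in ferret and 0.062 and 0.028 FPKM in mouse astrocytes (log2 difference 1.15). It reached the minimum level for testing in ferret astrocytes alone, and only just, so its call rests on low values. *Stat6*, the IL-4 and IL-13 factor, had 3.49 and 3.99 FPKM in ferret against 16.9 and 17.0 FPKM in mouse astrocytes (log2 difference -1.92).

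Of the 16 listed target genes of STAT3, 3 were called higher, *Junb* among them, and 4 lower in ferret astrocytes. These counts stand beside 13.1% and 30.1% for all genes tested and show nothing particular to the targets. Their median was -0.31 on the log2 scale, close to the -0.35 of all genes. *Gfap*, the classic astrocyte target, had a log2 difference of 0.01 (95% interval -0.14 to 0.17, adjusted p = 0.841). The difference was 0.41 under common-total scaling and 0.81 after quantile normalization, so it depended on the scaling. *Hif1a*, a hypoxia response factor, had 85.1 and 82.7 FPKM in ferret and 20.6 and 20.2 FPKM in mouse astrocytes (log2 difference 1.99), and *Bcl3*, an NF-kB cofactor, had 15.7 and 17.8 FPKM against 5.34 and 6.39 FPKM (log2 difference 1.37). The 4 lower genes were *Vegfa*, the vascular growth factor (6.71 and 5.85 FPKM against 27.4 and 23.5 FPKM, log2 difference -1.86), the G1 cyclin *Ccnd1* (-1.31), the adhesion molecule *Icam1* (-1.25) and the acute-phase factor *Cebpd* (-1.16). Of these 4, *Vegfa* alone kept an absolute log2 difference above 1 under common-total scaling. *Timp1*, a metalloproteinase inhibitor induced by this family, was abundant in both species, at 292 and 334 FPKM in ferret and 271 and 267 FPKM in mouse astrocytes (log2 difference 0.22). *Bcl2l1*, a survival gene, had a log2 difference of 0.00 (adjusted p = 0.986).

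**Figure D4:**
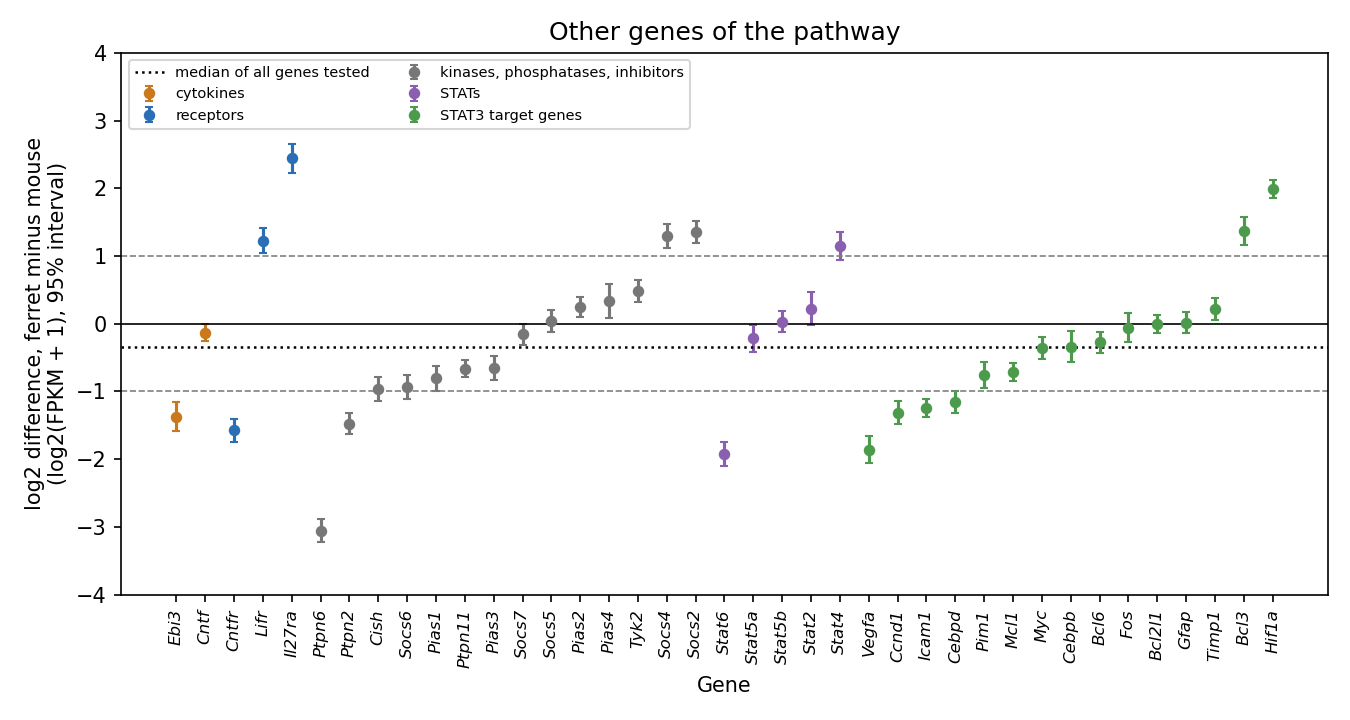
Log2 difference (ferret minus mouse, log2(FPKM + 1) scale, 95% interval) of 39 of the 42 other pathway genes tested, by role. *Junb*, listed at 0 in the mouse libraries, and 2 further genes are not shown. Dashed lines mark an absolute log2 difference of 1 and the dotted line the median of all genes (-0.35). *Il27ra*, *Hif1a*, *Bcl3*, *Socs2*, *Socs4*, *Lifr* and *Stat4* lie above the upper dashed line and *Ptpn6* lies lowest.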

How the data were processed

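The authors aligned paired-end reads of stranded, polyA-selected libraries with STAR 2.7.0f and used Cufflinks 2.2.1 to make the deposited FPKM values, with the Ensembl annotation of each species (mouse GRCm38, ferret MusPutFur). The strand setting of the quantification is not given in the sources used here. Gene models of unequal completeness therefore enter the FPKM, and low values carry no interval, since read counts, which the study lists in a supplement, were not used here. Symbols shared by both species were compared with limma 3.58.1 (R 4.3.3, empirical Bayes with trend) on log2(FPKM + 1). The 10204 genes tested reached a mean of 1 FPKM in ferret or mouse astrocytes, with Benjamini-Hochberg adjustment over all of them. Where a symbol had several rows, the row with the highest mean was used. All 10 members are named. The other pathway genes are given by counts, with values for cytokines, receptors and called genes, and others chosen after their values were seen. A few genes are counted in the lists but not reported here by name. The members, lists and rules were chosen with earlier results of these data known. Mouse coordinates are from GENCODE on GRCm38, a release other than the authors' annotation, and a ferret genome was not used here. Replicate numbers come from titles and the species' libraries are from different animals. Exact permutation tests used SciPy 1.17.1.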

Additional observations from a re-analysis of the deposited data

How the results depend on the processing

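Scaling between species was the choice that moved the counts of members called. The count of members called lower in ferret astrocytes changed from 4 to 2, and the count called higher from 1 to 2, with totals set to 1000000, with totals set to their mean (common-total scaling) and after quantile normalization alike. *Lif*, *Clcf1* and *Osmr* were called under all 4 scalings, *Il6st* (-0.76, -0.75 and -0.79) and *Jak2* (-0.89, -0.82 and -0.76) fell under a log2 size of 1 in the 3 rescaled fits, and *Socs3* passed it (1.37, 1.34 and 1.33). These scalings move the median of all genes towards the ferret, so the retention of *Lif* is no test of its stability. The median of the members tested became -0.39, -0.39 and -0.41, and -0.46 without the filter, where 9 members including *Il6* were counted. The median of the other pathway genes changed sign to 0.16, 0.15 and 0.18. Those called lower fell from 10 to 6 under common-total scaling and after quantile normalization. All 8 called higher kept the call under all 4 scalings, which, as for *Lif*, is no test of their stability. *Junb* is among these 8, and its exact 0 in both mouse libraries can be a failed estimate. Over all genes, those called higher rose from 1336 to 2197, 1954 and 2076 in the same 3 fits. Those called lower fell from 3069 to 2536, 2215 and 2090, so a drop in lower calls was not particular to the members. The share of calls that were higher moved from 30.3% to 46.4%, 46.9% and 49.8%. No member changed sign under any alternative tried. A pseudocount of 0.1 raised the other pathway genes called lower from 10 to 13, while those called higher stayed at 8. Over all genes it raised those called lower from 3069 to 3433 and those called higher from 1336 to 1579. With a pseudocount of 0.1, no filter, other handling of repeated symbols, no trend, or any of the 4 libraries left out, the counts of members stayed at 4 and 1.

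The replicate number as a block left 4 members lower and 1 higher, with 3072 genes lower and 1342 higher over all genes. It changed no call among the members. The deviations of same-numbered libraries had a correlation of 0.010, and the numbers come from the labels alone. The ratio of *Il6ra* to *Il6st* was planned and not run, since *Il6ra* had no ferret value here. The use of FPKM alone limits what can be said of *Il6*, *Osm* and other genes under 1 FPKM.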

Other observations

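Endothelial markers, which belong to no comparison above, were uneven in the mouse libraries. *Cdh5* had 21.96 and 22.46 FPKM there, while *Pecam1* had 0.041 and 0.031 FPKM and *Cldn5* was listed at 0. *Cdh5* was listed at 0 in both ferret libraries. *C1qa* had 193 FPKM in both mouse libraries and no ferret value here.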
